A study of Homo sapiens with 2 samples.

Results

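The genes of chemokine and interleukin ligands were examined for histone H3 lactylated at lysine 18 (H3K18la) in H1299, an established human non-small cell lung cancer line. They were taken by symbol from the RefSeq protein-coding genes placed on chromosomes 1 to 22: CCL, CXCL, CX3CL or XCL followed by a number, or IL followed by a number and at most a letter from A to F. This gave 81 of 18973 genes, of which 43 encode chemokines and 38 encode interleukins. CCL3L1 and CCL4L1 match the pattern but are given by RefSeq on an alternate sequence and were not used here. Chromatin of H1299 cells was crosslinked with formaldehyde, immunoprecipitated with an anti-H3K18la antibody and sequenced. The series has 2 libraries, 1 immunoprecipitated and 1 input, both of H1299 cells, and the labels name no treatment, transfection or genotype. The design text speaks of IgG where the labels speak of input, so that the control behind the folds is not known for certain. The values below come from the peak list of the immunoprecipitated library, in which each peak carries the authors' fold enrichment.

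With 1 library in each group there was no replicate check, and no difference below was tested. Intervals in brackets are exact (Clopper-Pearson) 95% binomial intervals, which cover counting error only, and genes that lie side by side are not independent counts. The depth of the libraries is unknown, so that a gene without a peak is one at which none was listed, not one shown to lack the mark. The list held 28695 peaks with a median fold of 4.36. Among markers of cell identity, a peak lay at an end of 4 of 4 mesenchymal genes (VIM, CDH2, AXL and ZEB1) and of 4 of 6 epithelial genes (KRT7, KRT19, and KRT8 and KRT18 in a shared peak, not EPCAM and CDH1). The peak of KRT19 lay 356 bp outside the gene and also at an end of KRT15. A peak lay at an end of 1 of 6 leukocyte genes, CD68, and of 0 of 3 endothelial genes, each of which had peaks inside the gene. The stronger peak of CD68, 6.51-fold, also lay at MPDU1, and a weaker one of 3.07-fold lay over the end of CD68 towards lower coordinates. PTPRC, another of the leukocyte genes, and CDH1 of the epithelial genes each had a peak inside the gene but not at an end. The intervals were 39.8 to 100% for mesenchymal, 22.3 to 95.7% for epithelial, 0.421 to 64.1% for leukocyte and 0 to 70.8% for endothelial genes. Each includes the 59.9% of all protein-coding genes with a peak at an end.

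Chemokines are small secreted proteins that guide leukocytes along gradients through receptors coupled to G proteins, and interleukins instruct immune and stromal cells, mostly through receptors that signal by JAK kinases and STAT factors or by MyD88. Many ligand genes arose by tandem duplication and lie in clusters. In lung tumours, epithelial cells can be a source of neutrophil-attracting chemokines and of IL-6, whereas many interleukins are products of lymphocytes and myeloid cells. Lactylation is a lysine modification derived from lactate, and H3K18la has been described at active promoters and enhancers.

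Ligand genes had fewer peaks than protein-coding genes in general. A peak lay within 1000 bp of either end, written below as at an end, in 13 of 81 ligand genes (16.0%, 8.83 to 25.9), against 59.9% of all 18973 genes. A peak overlapped the gene in 20 of 81 (24.7%, 15.8 to 35.5), against 65.9%, and lay within 20000 bp of the gene in 34 of 81 (42.0%, 31.1 to 53.5), against 77.3%. Thus 13 genes had a peak at an end, 7 had peaks in the gene only, 14 had them only in the flanks, and 47 had none within 20000 bp. Chemokine genes had a peak at an end in 5 of 43 cases (11.6%, 3.89 to 25.1) and within 20000 bp in 11 (25.6%, 13.5 to 41.2). Interleukin genes had a peak at an end in 8 of 38 cases (21.1%, 9.55 to 37.3) and within 20000 bp in 23 (60.5%, 43.4 to 76.0). The intervals of the families overlap for peaks at an end and do not overlap for peaks within 20000 bp. The difference was not tested, and the chemokines include 16 CC genes in 2 clusters of chromosome 17, none of which had a peak within 20000 bp.

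Length moved with these shares. Ligand genes had a median length of 5465 bp, compared with 24830 bp over all protein-coding genes, and a peak lay at an end of 47.3% of all genes up to 10000 bp long and of 64.7% of longer ones. The ligand genes stood below both, with 10 of 57 (17.5%, 8.75 to 29.9) in the shorter class and 3 of 24 (12.5%, 2.66 to 32.4) in the longer. The nearest peak was a median of 30215 bp from a ligand gene, whereas the median over all genes was 0, meaning that the nearest peak overlapped the gene. It was more than 100000 bp away for 23 of 81 ligand genes (28.4%, 18.9 to 39.5) and for 10.3% of all genes.

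**Figure D1:**
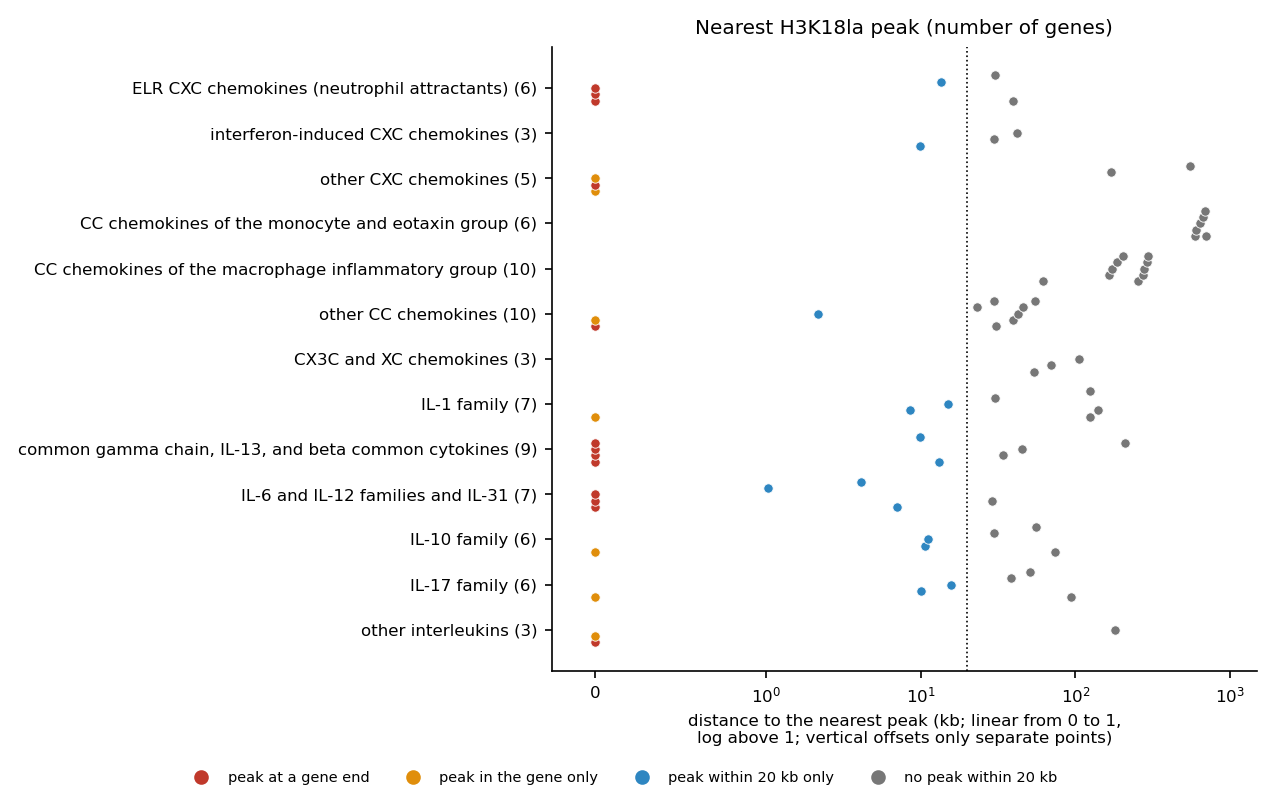
Distance from each of the 81 ligand genes to its nearest H3K18la peak (x axis, kb, linear from 0 to 1 and logarithmic above), by functional group (y axis, number of genes in brackets); each point is 1 gene, its colour gives where the nearest peaks lie, and the dotted line marks 20000 bp. The CC genes of chromosome 17, in the monocyte and macrophage groups, lie 61.4 to 704 kb from a peak, while points at 0 are genes overlapped by a peak.

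The highest folds at ends of chemokine genes were those of CXCL2 and CXCL1, and the lowest was that of CXCL3. All 3 encode neutrophil attractants, the CXC chemokines with a glutamate-leucine-arginine motif that act on CXCR1 and CXCR2. Of the 6 genes of this kind, which lie within 358627 bp of chromosome 4 (73740569 to 74099195), CXCL1, CXCL2 and CXCL3 had a peak at an end and CXCL5, CXCL6 and CXCL8 had none (3 of 6, 11.8 to 88.2%). That interval includes the 59.9% of all protein-coding genes and the 47.3% of those up to 10000 bp long. At CXCL1 (NCBI gene 2919) a peak of 961 bp and 6.20-fold, with a -log10 q of 12.7, lay over the start site (73868975 to 73869935). At CXCL2 (NCBI gene 2920) a peak of 3385 bp and 6.79-fold, with a -log10 q of 15.1, covered the start site and 1334 of the gene's 2156 bp (74097862 to 74101246). At CXCL3 (NCBI gene 2921) the peak was weaker, with 4.0-fold over 1019 bp and a -log10 q of 4.97 (74038369 to 74039387), and likewise lay over the start site.

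CXCL8, CXCL6 and CXCL5 lay between and beside these peaks. CXCL8, which encodes interleukin-8, had its nearest peak 13459 bp away on the side of lower coordinate (4.19-fold, 73725705 to 73727110). CXCL6 lay 30215 bp and CXCL5 39692 bp from any peak, and no peak lay in the 154472 bp between a second peak beyond CXCL1 (3.59-fold, 12296 bp from the gene) and that of CXCL3. The platelet chemokine genes PF4 and PPBP, whose symbols fall outside the naming rule, lie there and had no peak within 20000 bp. Beyond CXCL2 followed 4 more peaks within 20000 bp, of which the strongest in the neighbourhood, 5573 bp wide and 7.48-fold (74107827 to 74113399, -log10 q of 19.3), touched no end of a protein-coding gene.

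**Figure D2:**
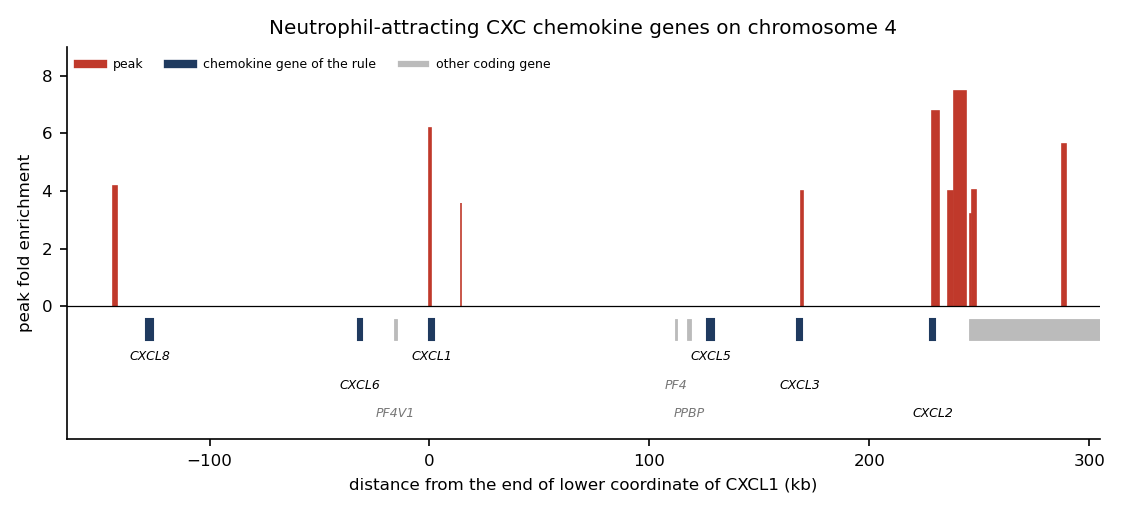
Map of the CXC cluster on chromosome 4: the x axis is the distance in kb from the end of lower coordinate of CXCL1, bars are H3K18la peaks with their width to scale and their fold enrichment as height (y axis), and boxes below are genes. Peaks stand on CXCL1, CXCL3 and CXCL2, with the tallest bar, 7.48-fold, beyond CXCL2 and no bar on CXCL8, CXCL6 or CXCL5.

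The stretches just before the start sites show how close these genes are in sequence and where they differ. The 250 bases before the RefSeq start (GRCh38.p14, 5′ to 3′ on the strand of the gene) are given for the genes with a peak, at chr4:73869143-73869392 (+) for CXCL1, chr4:74099196-74099445 (-) for CXCL2 and chr4:74038690-74038939 (-) for CXCL3, and for those without, at chr4:73998678-73998927 (-) for CXCL5, chr4:73836428-73836677 (+) for CXCL6 and chr4:73740319-73740568 (+) for CXCL8. Capitals mark matches to GGGNNTTTCC, letters typical of sites of the inflammatory factor NF-kB, or to TGANTCA, letters typical of AP-1 sites, both searched on both strands.
CXCL1: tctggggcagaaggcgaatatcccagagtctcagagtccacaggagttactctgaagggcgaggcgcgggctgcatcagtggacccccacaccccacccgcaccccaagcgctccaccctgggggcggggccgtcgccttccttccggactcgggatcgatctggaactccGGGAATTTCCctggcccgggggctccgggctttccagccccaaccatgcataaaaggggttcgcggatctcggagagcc
CXCL2: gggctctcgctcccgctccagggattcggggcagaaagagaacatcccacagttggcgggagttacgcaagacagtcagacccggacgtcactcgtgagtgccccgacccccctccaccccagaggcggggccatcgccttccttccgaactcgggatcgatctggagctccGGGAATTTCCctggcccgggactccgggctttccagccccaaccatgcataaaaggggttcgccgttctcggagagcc
CXCL3: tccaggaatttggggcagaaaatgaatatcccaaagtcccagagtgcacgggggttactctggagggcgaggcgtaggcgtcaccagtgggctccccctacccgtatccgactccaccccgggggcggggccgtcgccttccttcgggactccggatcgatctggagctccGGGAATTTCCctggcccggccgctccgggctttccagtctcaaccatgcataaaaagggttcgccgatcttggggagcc
CXCL5: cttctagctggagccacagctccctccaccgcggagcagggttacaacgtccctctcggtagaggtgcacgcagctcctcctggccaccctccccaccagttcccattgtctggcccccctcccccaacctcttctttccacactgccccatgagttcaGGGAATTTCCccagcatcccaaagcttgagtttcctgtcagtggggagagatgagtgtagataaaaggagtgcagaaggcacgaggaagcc
CXCL6: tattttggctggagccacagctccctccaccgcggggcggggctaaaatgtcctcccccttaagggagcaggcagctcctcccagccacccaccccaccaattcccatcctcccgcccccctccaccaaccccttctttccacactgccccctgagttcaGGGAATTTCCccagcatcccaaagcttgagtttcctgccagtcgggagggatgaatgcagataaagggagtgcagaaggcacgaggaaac
CXCL8: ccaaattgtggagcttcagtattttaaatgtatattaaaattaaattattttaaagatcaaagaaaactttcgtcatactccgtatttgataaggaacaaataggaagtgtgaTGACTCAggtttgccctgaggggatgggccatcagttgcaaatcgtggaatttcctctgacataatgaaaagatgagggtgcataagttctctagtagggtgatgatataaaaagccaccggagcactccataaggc

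The same 10 letters, GGGAATTTCC, stood before CXCL1, CXCL2 and CXCL3, beginning 79, 78 and 79 bases before the start, and before CXCL5 and CXCL6, beginning 91 and 90 bases before it. CXCL8 had no exact match to GGGNNTTTCC in this window and a TGACTCA 137 bases before the start. Its window does hold tggaatttcc, which differs from that string only in the first letter, so that CXCL8 is not shown to lack an NF-kB site. The genes with and without a listed peak differed in CpG number: the 250 bases held 18, 20 and 19 CpG in CXCL1, CXCL2 and CXCL3, compared with 6, 6 and 4 in CXCL5, CXCL6 and CXCL8. All 250 bases lay inside the peak in each of the 3 genes with a peak.

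Among the other CXC chemokine genes, only CXCL16 carried a peak at an end. Peaks overlapped 3 of the 5 that are not grouped as interferon-induced, CXCL13, CXCL16 and CXCL17 (60.0%, 14.7 to 94.7). That interval includes the 65.9% of all protein-coding genes overlapped by a peak. None of the 3 interferon-induced genes CXCL9, CXCL10 and CXCL11, whose products attract T cells through CXCR3, had a peak at an end or in the gene. CXCL9 lay 9839 bp from a peak of 3.70-fold at an end of SDAD1, and CXCL10 and CXCL11 lay 29682 and 42246 bp from the same one. CXCL16 (NCBI gene 58191), a membrane-anchored ligand of CXCR6, had a narrow peak at its end of higher coordinate, with 4.06-fold over 515 bp (chromosome 17, 4739421 to 4739935, -log10 q of 4.11), which also lay at an end of ZMYND15. The B-cell attractant CXCL13 had 2 peaks inside its 100082 bp, of up to 5.44-fold, and CXCL17 had 1 inside of 2.55-fold. CXCL12, the ligand of CXCR4, lay 550023 bp and CXCL14 lay 170962 bp from the nearest peak.

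Among CC chemokines, the genes of chromosome 17 stood farthest from any peak. The cluster of CCL2, CCL7, CCL11, CCL8, CCL13 and CCL1 (34255285 to 34363233), attractants of monocytes and eosinophils, lay inside a stretch of 2083900 bp with no peak (32877075 to 34960976). Only 121 of 27894 stretches between neighbouring peaks on chromosomes 1 to 22 were at least as long, unsequenced regions included. This stretch held 11 protein-coding genes, 6 of them these chemokines. CCL2, which encodes the monocyte attractant MCP-1, was 703773 bp from a peak, and CCL7, CCL11, CCL8 and CCL13, the next farthest of all ligand genes, were 688734, 672642, 639574 and 602366 bp away.

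The cluster of CCL5, CCL16, CCL14, CCL15, CCL23, CCL18, CCL3, CCL4, CCL3L3 and CCL4L2 (35871491 to 36212873), which includes attractants of T cells and macrophages, lay in another stretch without peaks. It measured 676639 bp, and CCL5 at its edge was 61389 bp from a peak of 4.39-fold at an end of TAF15. CCL3L3 and CCL4L2 are near-identical copies of CCL3 and CCL4, and how reads shared by such copies were placed is not stated. The peaks between the clusters ranged up to 7.45-fold. Without the 16 genes of both clusters, 13 of 65 ligand genes had a peak at an end.

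**Figure D3:**
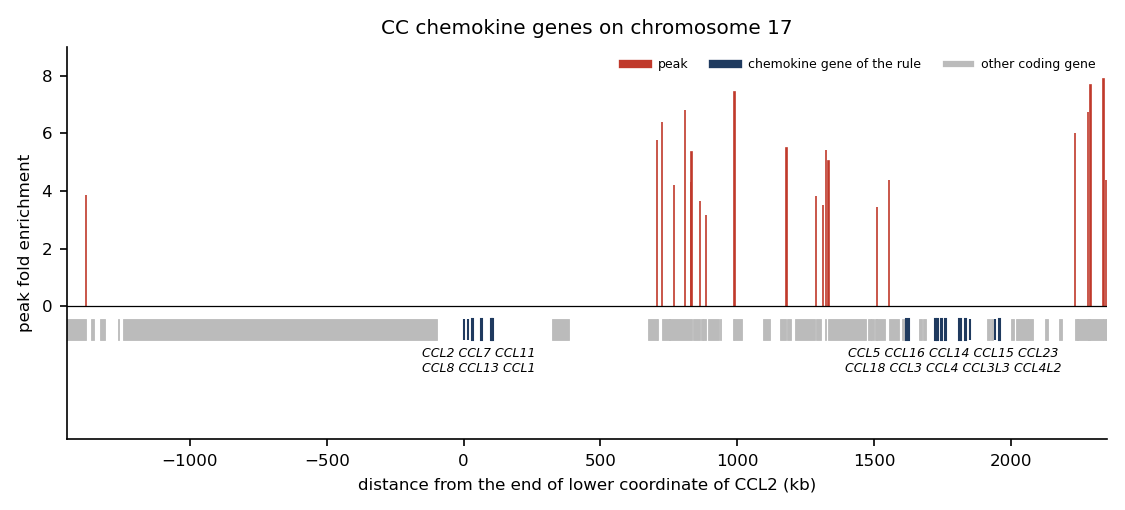
Map of both CC chemokine clusters on chromosome 17: the x axis is the distance in kb from the end of lower coordinate of CCL2, bars are H3K18la peaks with fold enrichment as height (y axis), and boxes below are genes, drawn with a minimum line width. No bar stands over the 6 genes around 0 or over the 10 genes to the right, while peaks of up to 7.45-fold lie between the clusters.

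Of the 10 CC genes elsewhere, CCL20, the ligand of CCR6 on dendritic cells and Th17 cells, was alone in having a peak at an end (NCBI gene 6364, chromosome 2). That peak, 2897 bp wide and 4.26-fold (227816797 to 227819693, -log10 q of 6.88), lay at the 3′ end and overlapped 760 bp of the gene. CCL28, a mucosal epithelial chemokine, had a peak of 3.94-fold inside the gene (43395609 to 43397220 on chromosome 5), over a further RefSeq start site at 43397137 whose 300-base promoter holds 24 CpG, compared with 3 at the outermost start. CCL27 lay 2145 bp from a peak of 7.19-fold at ends of LOC730098 and PHF24. CCL17, CCL22 and CX3CL1 on chromosome 16, CCL24 and CCL26 on chromosome 7, CCL19 and CCL21 on chromosome 9, CCL25 on chromosome 19, and the lymphocyte chemokines XCL1 and XCL2 on chromosome 1 had no peak within 20000 bp, the closest being CCL19 at 23090 bp.

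Among interleukins, the highest fold belonged to IL11 (NCBI gene 3589), a cytokine of the IL-6 family that signals through the shared receptor chain gp130. Its peak of 2273 bp and 7.89-fold (chromosome 19, 55368722 to 55370994, -log10 q of 23.2) covered the start site and 1742 of the 6082 bp of the gene, and 3 further peaks of 4.26-fold to 5.99-fold followed within 20000 bp, 2 of them at TMEM238. Of 11365 protein-coding genes with a peak at an end, 81.6% had a lower fold than IL11. IL6 itself (NCBI gene 3569) had no peak at its start. A peak of 531 bp and 4.03-fold lay within the gene, near its 3′ end (chromosome 7, 22730862 to 22731392, -log10 q of 4.01).

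IL32 (NCBI gene 9235), an inflammatory cytokine-like protein of lymphocytes and epithelia, had a peak over its start site of 1703 bp and 6.50-fold (chromosome 16, 3064633 to 3066335, -log10 q of 13.4).

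The stretches before the start of IL11, at chr19:55370464-55370713 (-), and of IL32, at chr16:3065153-3065402 (+), are shown because both lay under a strong peak and differed in CpG number. Capitals mark the same letters as above.
IL11: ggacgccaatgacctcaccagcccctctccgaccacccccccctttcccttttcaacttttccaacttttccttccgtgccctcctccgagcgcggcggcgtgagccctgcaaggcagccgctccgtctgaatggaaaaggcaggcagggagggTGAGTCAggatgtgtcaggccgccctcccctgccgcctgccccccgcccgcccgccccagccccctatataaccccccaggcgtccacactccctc
IL32: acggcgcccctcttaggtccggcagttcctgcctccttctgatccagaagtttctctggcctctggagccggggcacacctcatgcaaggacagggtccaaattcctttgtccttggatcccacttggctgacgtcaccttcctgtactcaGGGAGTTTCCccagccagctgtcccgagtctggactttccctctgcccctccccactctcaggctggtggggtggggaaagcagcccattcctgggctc

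IL11 had a TGAGTCA beginning 96 bases before the start and 16 CpG in these 250 bases. IL32 had a GGGAGTTTCC beginning 99 bases before the start and 6 CpG. All 250 bases of both lay inside the peak.

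The interleukin genes IL12A, IL4 and IL5, like IL6 above and IL7 below, had values under the median of all genes with a peak at an end, 5.66-fold. IL12A, the subunit of IL-12 that is shared with IL-35, had a narrow peak of 291 bp and 3.89-fold over its start site (chromosome 3, 159988783 to 159989073). IL4, the cytokine that drives type 2 helper T cells, had 4.33-fold inside the gene, within 1000 bp of its start (chromosome 5, 132674242 to 132675402) and a further peak of 4.55-fold in the gene. IL5, the eosinophil growth factor on the same chromosome, had a peak of 4.27-fold at the end towards higher coordinates (132556242 to 132558766), which also lay at an end of RAD50. IL13, between them, had no peak of its own and lay 13132 bp from the first peak of IL4.

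IL15 (NCBI gene 3600), which sustains NK cells and memory CD8 T cells, had a peak of 6.03-fold at the end towards lower coordinates (chromosome 4, 141636269 to 141637456, -log10 q of 11.3) and 4.72-fold inside the gene. IL7 (NCBI gene 3574), the survival factor of developing and resting T cells, had a peak of 4.98-fold at the end towards higher coordinates (chromosome 8, 78804012 to 78805481, -log10 q of 12.6). The strands of IL15 and IL7 were not in the start-site table, so that these ends are given by coordinate.

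**Figure D4:**
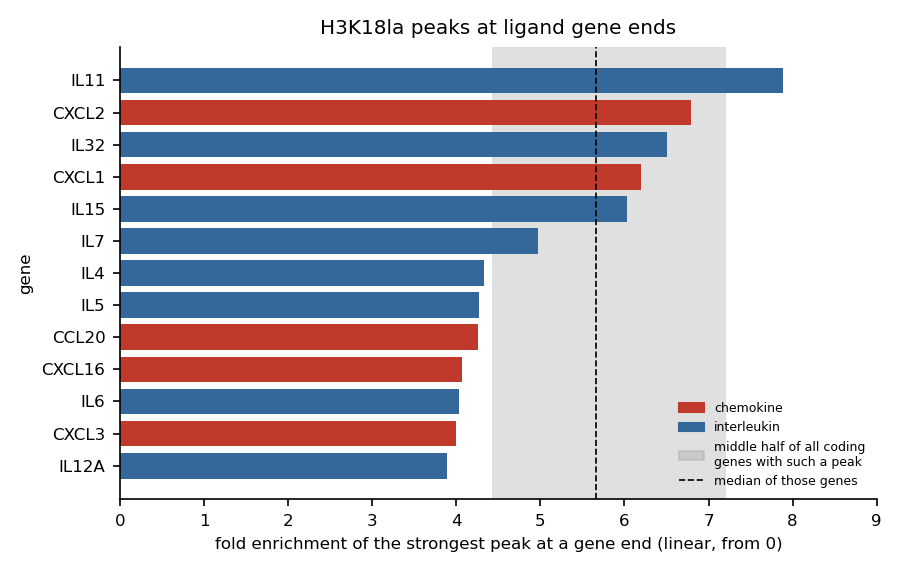
Fold enrichment of the strongest peak at an end (x axis, linear from 0) for each of the 13 ligand genes that had one; bars are single values of 1 library, the grey band spans the quartiles (4.42 to 7.21) and the dashed line the median (5.66) of the 11365 protein-coding genes with a peak at an end. IL11, CXCL2, IL32, CXCL1 and IL15 lie above the line, and IL12A, CXCL3, IL6, CXCL16, CCL20, IL5 and IL4 lie below the band.

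No gene of the IL-1, IL-10 or IL-17 families had a peak at an end, in 7, 6 and 6 genes. The upper limits of the intervals were 41.0, 45.9 and 45.9%, against 59.9% of all protein-coding genes. In the IL-1 family, IL18 had 2 peaks inside the gene (5.27-fold and 3.28-fold). IL1A lay 8517 bp from a peak of 5.38-fold at an end of CKAP2L, and IL1B lay 14946 bp from the nearer of 2 peaks of up to 5.28-fold. IL37, IL36A and IL36B of the same cluster and the epithelial alarmin IL33 had none within 20000 bp, at 30007, 124301, 140931 and 125211 bp. In the IL-10 family, IL24 had a peak of 3.37-fold inside the gene, IL26 and IL22 lay 10597 and 11160 bp on either side of 1 peak of 3.58-fold, and IL10, IL19 and IL20 were 73988, 55889 and 29647 bp from a peak. In the IL-17 family, IL17D had 4.25-fold inside the gene (20703524 to 20704226 on chromosome 13), over a further RefSeq start site at 20703699 whose promoter holds 43 CpG, whereas IL17A, IL17F and IL25 had none within 20000 bp. The peak of IL17D also lay within 1000 bp of its outermost listed start, at 20703092, which lies inside the span used for the gene.

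Several interleukin genes had peaks only in their flanks. IL12B, the second subunit of IL-12, lay 1024 bp from a peak of 3.36-fold, just outside the window counted as an end. IL23A lay 4105 bp from a peak of 5.45-fold at an end of PAN2, IL27 lay 7035 bp from one of 5.89-fold at CLN3, and IL17C lay 10002 bp from one of 3.62-fold at ends of CYBA and MVD. IL3 lay 9853 bp from a peak of 3.79-fold at an end of CSF2, and IL17B lay 15790 bp from one of 5.21-fold at PCYOX1L. Of the 14 ligand genes with peaks only in their flanks, the nearest peak lay at an end of another protein-coding gene in 9. IL34, a ligand of the CSF1 receptor, had 4.55-fold inside the gene, and IL2, IL9, IL16, IL21 and IL31 had none within 20000 bp, with IL2 at 209447 bp.

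Neighbouring ligand genes were also grouped by position. Chained over at most 250000 bp, the 81 genes formed 42 loci, of which 14 held 2 or more members and 53 members in all. A peak lay at an end of a member in 2 of these 14 shared loci, the CXC cluster and the IL4, IL5 and IL13 locus, and in 8 of the 28 loci of 1 member. In 8 of the 14 shared loci, with 30 members, no peak overlapped the span from the first member to the last. Some of these spans were short, such as 34796 bp for CXCL9, CXCL10 and CXCL11, and chromosomes 1 to 22 held 0.973 peaks per 100 kb. Like groups of other genes were not counted, so these locus counts cannot be called particular to ligand genes.

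CpG content of the promoter, which the naming rule did not use, also differed from other genes. The RefSeq promoter table (GRCh38.p14, 250 bases before to 50 after the start, at the listed start nearest the outer end of each gene) held 58 of the 81 ligand genes and 15101 protein-coding genes. The 300 bases held a median of 4 CpG in ligand genes and 22 in all genes. A peak lay within 1000 bp of this start in 8 of 58 ligand genes, against 61.1% of all genes. Fewer than 10 CpG were found in 49 of 58 ligand promoters and in 27.1% of all promoters.

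Within each CpG class the counts were as follows. With fewer than 10 CpG, 2 of 49 ligand genes had a peak (4.08%), IL4 and IL32, against 14.6% of all genes. With 10 to 19 CpG, both ligand genes had a peak, IL11 and IL17D, against 61.7%. With 20 or more, 4 of 7 had a peak (57.1%), CXCL1, CXCL2, CXCL3 and IL12A, against 83.3%. The 3 without were CXCL12 with 39 CpG, IL13 with 37 and CXCL14 with 31, the highest counts among the 58 ligand genes at this start.

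**Figure D5:**
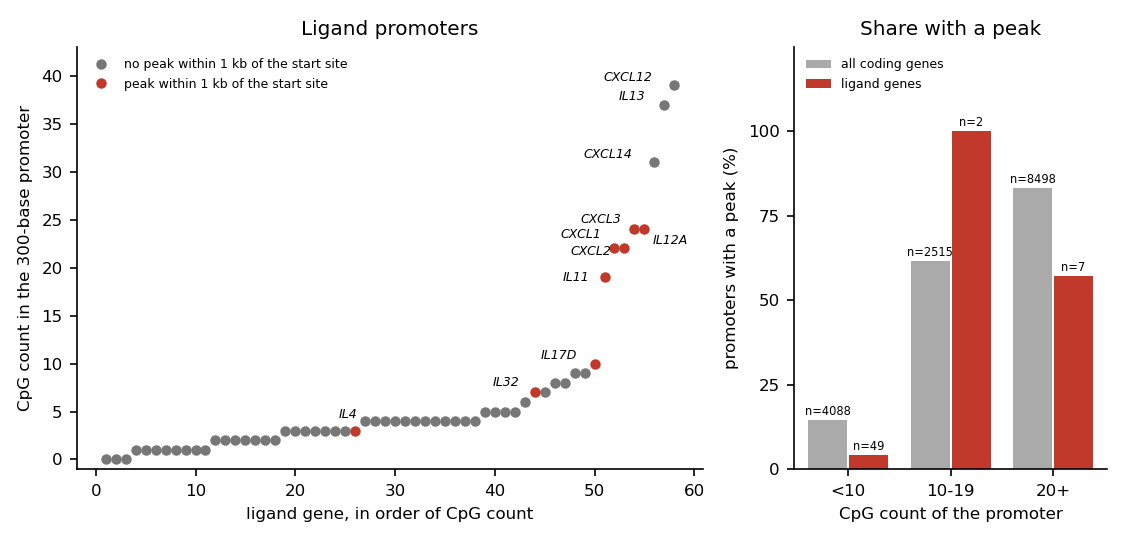
Left, number of CpG in the 300-base promoter (y axis) of the 58 ligand genes in order of that number (x axis), in red where a peak lay within 1000 bp of the start. Right, percentage of promoters with a peak (y axis) by CpG class for all protein-coding genes (grey) and ligand genes (red), with the number of promoters above each bar; CXCL12, IL13 and CXCL14 are the CpG-rich ligand genes without a peak.

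Letter motifs of inflammatory factors were more frequent in ligand promoters than in all promoters, a difference that was not tested. The median GC content was 48.7% in ligand promoters and 62.7% in all, and motif shares were not compared at like GC content. Only exact matches counted. GGGNNTTTCC, on either strand, occurred in 9 of 58 ligand promoters (15.5%) and in 2.0% of all 15101, and the 9 were CCL20, CXCL1, CXCL2, CXCL3, CXCL5, CXCL6, IL32, IL6 and IL9. Of these, CXCL1, CXCL2, CXCL3 and IL32 had a peak within 1000 bp of the start and the other 5 had none. The CXC genes among the 9 lie in the same cluster and are not independent counts. TGANTCA occurred in 13 ligand promoters (22.4%, against 5.64% of all), and IL11 alone of these had a peak. GAAANNGAAA, letters typical of interferon response elements, occurred in 6 (10.3%, against 3.19%), of which IL12A and IL4 had a peak and CXCL9, CXCL10, IL17B and IL24 had none. Beside these counts, 8 of all 58 ligand promoters had a peak (13.8%). The share with a peak among all promoters that hold each motif was not computed, so no motif can be linked to peaks here.

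Receptor genes for these ligands were counted in the same way, beside 59.9% of all protein-coding genes with a peak at an end. Of 22 chemokine receptor genes, 3 had a peak at an end (13.6%, 2.91 to 34.9), namely CCR10 with 8.31-fold in a peak also at PLEKHH3, CCRL2 with 3.97-fold, and CXCR5 with 3.08-fold in a peak also at BCL9L. CXCR1 and CXCR2, the receptors of the neutrophil attractants, and CXCR4 and ACKR3, those of CXCL12, had no peak within 20000 bp. Of 36 interleukin receptor genes, 16 had a peak at an end (44.4%, 27.9 to 61.9, an interval that includes the share of all genes), led by IL4R with 10.8-fold, IL6ST, which encodes gp130, with 7.88-fold, IL20RA with 7.09-fold, and IL27RA with 6.96-fold in a peak also at RLN3. IL11RA had 3.49-fold in a peak also at GALT and IL15RA had 5.07-fold, while IL7R, IL2RA, IL10RA and IL1R1 had none within 20000 bp.

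The other genes of these pathways are given beside the same 59.9% of all protein-coding genes, and no list was tested against it. Of 14 JAK, STAT and SOCS genes, 11 had a peak at an end (78.6%, 49.2 to 95.3, an interval that includes that share), with STAT3 at 10.3-fold, JAK1 at 7.78-fold, the feedback inhibitor SOCS3 at 7.07-fold and JAK2 at 6.47-fold, and without STAT4, STAT5A and STAT5B. Of 13 transcription factors that act at ligand genes, 12 had one (92.3%, 64.0 to 99.8), with NFKB1 at 11.6-fold, IRF1 at 10.9-fold, RELA at 9.68-fold and the AP-1 gene FOSL1 at 8.24-fold, and GATA3 had peaks inside the gene only. Of 7 genes that process IL-1, 4 had one (57.1%, 18.4 to 90.1), close to that share: CASP4 with 6.86-fold, NLRP3 with 5.52-fold, GSDMD with 3.61-fold and NLRP1 with 3.41-fold. Of 5 antagonist and binding protein genes, SIGIRR alone had one (6.10-fold), and IL1RN, IL36RN, IL18BP and IL1F10 had none.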

How the data were processed

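H3K18la ChIP-seq peaks of H1299 were analysed from the deposited broad peak list of the single immunoprecipitated library. The submitters' processing notes name bcl2fastq 2.17, cutadapt 1.18, Trimmomatic 0.38, Bowtie2 2.3.4.1, Picard, MACS2 (2.1.2 and 2.1.0), ChIPseeker and hg38, without roles or settings. Each peak carries the authors' fold enrichment, a ratio, and its deposited -log10 p and -log10 q. Its deposited score matched 10 times the -log10 q with decimals dropped for 99.98% of the list. How the control was scaled is not given in the sources used here. The largest q listed was 0.0472.

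Genes came from RefSeq (GRCh38.p14). There were 59679 placed entries, and 718 on alternate or unlocalised sequences were left out. A peak counted at an overlap of 1 bp or more. The gene table has no exons, so that exonic or intronic positions were not assigned. Python 3.11.15, pandas 2.3.3 and scipy 1.17.1 were used. Tested on simulated data, the overlap code placed 1000 of 1000 genes as planted.

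The members, gene lists and alternatives were chosen with earlier results of these data known. The text names every ligand gene with a peak at an end, in the gene or within 20000 bp, the 5 farthest from a peak, and up to 4 genes with and 4 without a peak from each other list. CXCL1 and CXCL3 were added to the printed promoters after their values were seen, as were IL11RA, IL15RA, the cytokine genes named beyond 4 and the distances of further genes without a peak. CpG classes and motifs were likewise chosen after the peaks were seen.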

Additional observations from a re-analysis of the deposited data

How the results depend on the processing

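The count of 13 ligand genes with a peak at an end stayed between 9 and 18 under 9 of 11 alternatives. Among these 9, leaving out near-identical copies or the CC genes of chromosome 17 removed only genes without a peak within 20000 bp. Neither could therefore change this count, or those of overlapped genes and of genes with a peak within 20000 bp. Under the other alternatives the count at an end could change. It was 6 of 81 among peaks above the median fold (45.6% of all genes) and 7 of 58 at the 5′ end only, where CCL20 and IL6 no longer counted and 23 genes had no strand. Keeping peaks with a -log10 q from 5 upwards left 10 of 81 (53.2% of all genes), without CXCL16, CXCL3 and IL6. With a window of 3000 bp the count was 18 (63.3% of all genes), with CCL27, IL12B, IL17D, IL24 and IL34 added. CXCL1, CXCL2, IL11 and IL32 were the 4 genes counted under all 11. Among peaks above the median fold, genes overlapped by a peak fell from 20 to 10 and genes with a peak within 20000 bp from 34 to 18, and under the other alternatives these counts were 14 to 20 and 27 to 50. Shares of all genes under these alternatives were not computed, nor for the 5′ end or for all start sites. These changes therefore cannot be called particular to ligand genes. A share was computed at the listed start nearest the outer end of each gene, which can differ from the 5′ end used here. There, a peak lay within 1000 bp in 61.1% of all genes and in 8 of 58 ligand genes. The related lists together had 54 of 113 genes with a peak at an end, and 36 to 56 under the alternatives. The start sites of all RefSeq transcripts (9 of 58) and the removal of the CC genes of chromosome 17 were chosen after seeing the data. No paired analysis was possible because each group has 1 library. Depth is unknown and limits every statement of a missing peak.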

Other observations

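Cytokine genes outside the naming rule included stronger peaks than any ligand gene within it. Of 16 such genes, 7 had a peak at an end (43.8%, 19.8 to 70.1, an interval that includes the 59.9% of all protein-coding genes). The median among those 7 was 8.47-fold. CLCF1 and CTF1, which like IL11 belong to the IL-6 family, had peaks of 17.2-fold and 8.71-fold, and that of CTF1 also lay at an end of BCL7C. LIF, also of that family, had 8.47-fold with 7 peaks within 20000 bp, and CSF1, the macrophage growth factor, had 9.06-fold with 5. MIF had 6.52-fold, EBI3, a partner subunit of IL-27, had 3.85-fold, and CSF2 had 3.79-fold in a peak 180 bp outside the gene.

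TNF, OSM and CSF3 had no peak at an end but lay 2322, 4529 and 3242 bp from one. IFNG lay 19023 bp from its nearest peak. PF4V1, in the CXC cluster, lay 14492 bp from a peak, PPBP 50179 bp and PF4 56245 bp, and IL36G, in the IL-1 cluster, lay 96848 bp from one.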
